A study of Mus musculus with 6 samples.

Results

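N-methyl-D-aspartate (NMDA) receptors are glutamate-gated cation channels of neurons. This account covers the 7 mouse genes for their subunits, Grin1, Grin2a, Grin2b, Grin2c, Grin2d, Grin3a and Grin3b, in a table of differentially methylated regions. Members were all regions that the authors' deposited table lists under 1 of these gene names, in any cytosine context, counted once by position and context. This gave 18 of 9707 regions, listed for 3 of the 7 genes: 14 for Grin2b, 3 for Grin1 and 1 for Grin2a. For Grin2c, Grin2d, Grin3a and Grin3b the table gave 0 regions. The regions were thus chosen by gene name from a list of regions that differ between the groups, by criteria not given in the sources used here. For that reason all levels and directions are given as description, with no test.

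The regions compare 2 groups of single mouse embryos of C57BL/6 background at embryonic day 4.5, each converted with bisulfite and sequenced across the genome. All had received sperm small RNA at 2 ng/μl as fertilised eggs and were cultured until about 108 h after injection. In the normal group (3 embryos, replicates 1, 2 and 4) the RNA came from normal mice. In the depressed group (3 embryos, replicates 1, 3 and 4) it came from stress-induced depressed mice. The labels name no uninjected embryos, no pairing and no litter, and they do not say how many males gave RNA. For each region the table holds 1 mean per group, as the authors computed it, and it has 0 columns of values per embryo. Read depth is therefore unknown, no value has an error or n of its own, and no difference could be set against the variation among embryos. A whole embryo at this stage holds several cell lineages and no neurons, so a level is an average over cells that are not the receptor's usual site.

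An NMDA receptor is a tetramer that always contains GluN1, the product of Grin1, which binds the co-agonist glycine or D-serine. Its partners are the glutamate-binding GluN2 subunits (Grin2a to Grin2d), which set the channel's kinetics and its magnesium block, or the glycine-binding GluN3 subunits (Grin3a and Grin3b). GluN2B prevails early in brain development and GluN2A gains weight as circuits mature. DNA methylation in mammals sits mainly on cytosines followed by G (CG). In the other contexts, CHG and CHH, H stands for A, C or T, and methylation there is scarce in most cells. Bisulfite conversion was not analysed here, so the part of unconverted cytosines in the CHG and CHH levels below was not tested.

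None of the 18 regions was in the CG context. The table lists 867 lower and 13 higher CG regions in all, and 2.54% of 21900 protein-coding RefSeq genes carry a lower and 0.0411% a higher one. Lower CHG regions were listed for 2 of the 7 NMDA receptor genes (Grin1 and Grin2b), against 6.4% of protein-coding genes. A higher CHG region was listed for 1 of 7 (Grin1), against 0.758%. Lower CHH regions were listed for 2 of 7 (Grin1 and Grin2b), against 5.37%, and higher CHH regions for 2 of 7 (Grin2a and Grin2b), against 9.11%. Any region at all was listed for 3 of 7, against 18% of protein-coding genes. With 7 genes, picked with this contrast known, nothing is read from these shares about the family.

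The 18 regions were of 2 kinds. The 12 lower ones stood between 12.5 and 61.8% in the normal group (median 30.7%) and between 0.0610 and 4.06% in the depressed group (median 0.465%). The 6 higher ones stood between 0.261 and 1.53% in the normal group (median 1.16%) and between 3.06 and 18.0% in the depressed group (median 6.30%). So the lower regions differed by 11.9 to 61.4 percentage points and the higher ones by 2.60 to 16.5. In the table as a whole, 91.03% of CHG regions were lower and 79.6% of CHH regions were higher in the depressed group. Median levels of all its lower CHG regions were 30.9% in the normal and 0.174% in the depressed group. For all lower CHH regions they were 24.9 and 0.637%. For all higher regions they were 0.191 and 21.8% (CHG) and 0.769 and 4.76% (CHH), in the same order of groups. The NMDA receptor regions comprised 7 lower and 1 higher CHG regions, and 5 lower and 5 higher CHH regions.

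**Figure D1:**
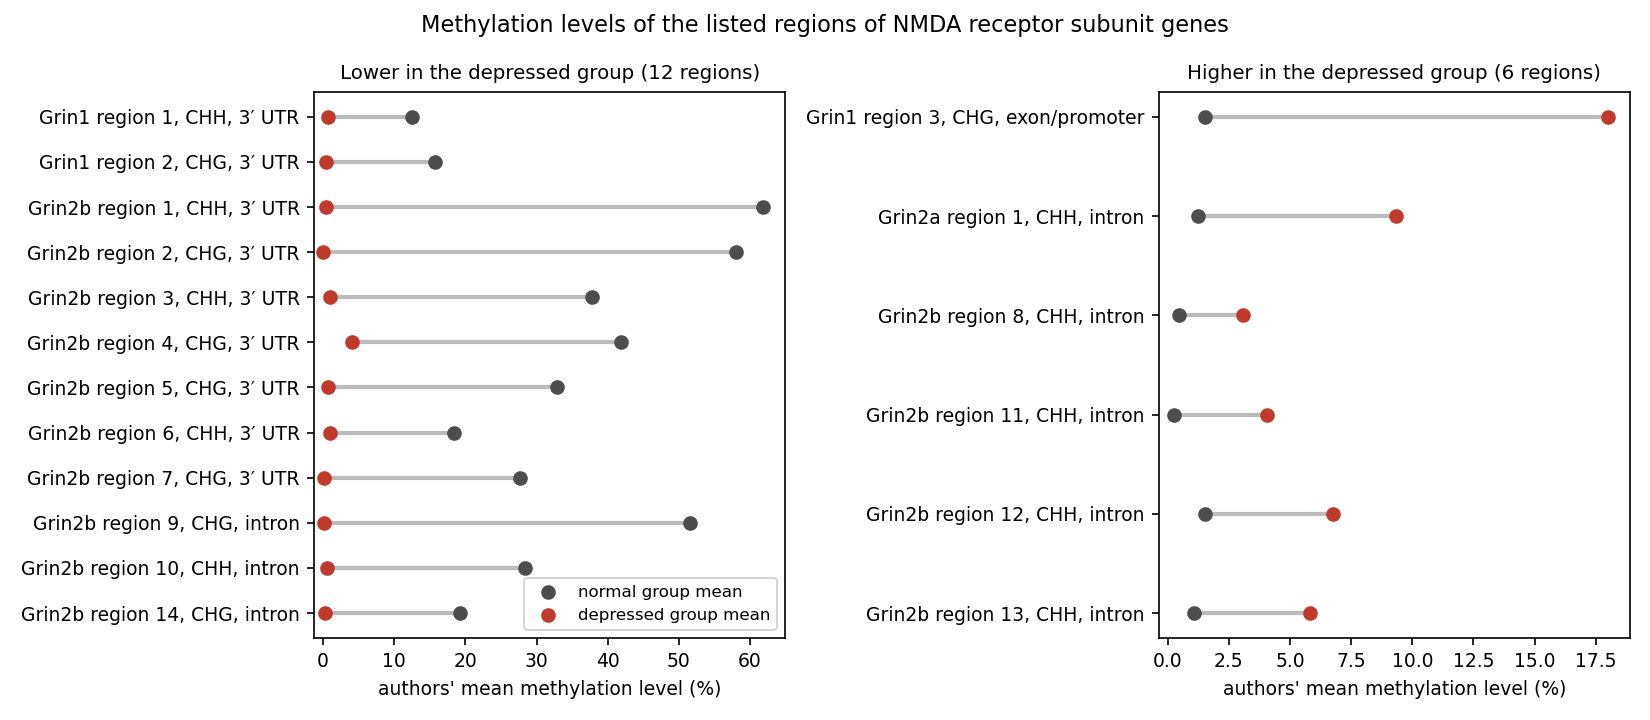
Authors' mean methylation level in percent (horizontal axis) of each of the 18 listed regions, with the normal group in grey and the depressed group in red; regions are numbered by position along the chromosome within a gene, and the panels have different scales. In the left panel every depressed mean lies at or below 4.06%, and in the right panel every normal mean lies at or below 1.53%.

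Grin1, on mouse chromosome 2 (RefSeq span 25291177 to 25319187, minus strand, build GRCm38, which is mm10), encodes the obligatory GluN1 subunit and carried 3 regions in exons. The 3′ end of the gene held an overlapping pair that was lower in the depressed group. Its CHH region (25291888 to 25292423, 55 cytosines) was at 0.666% in depressed-group and 12.5% in normal-group embryos, a difference of 11.9 points. The CHG region inside it (25291960 to 25292101, 13 cytosines) was at 0.421% against 15.8%. Both are annotated to the 3′ UTR, an exon and an intron of Grin1 and to the shore of a CpG island, and the CHH region also to the island itself.

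The third Grin1 region went the other way. This CHG region (25297433 to 25297618, 20 cytosines) stood at 18.0% in depressed-group and 1.53% in normal-group embryos, 16.5 points higher. It was the only higher region of the family in an exon and the only one in the CHG context. Its annotation also names a Grin1 promoter, but the region lies 21.7 kb downstream of the RefSeq start of the gene and 6.35 kb from its 3′ end. The stretch of all 3 Grin1 regions is also spanned by Grin1os, a RefSeq gene named for the opposite strand (25291258 to 25298660). A level there belongs to both genes and cannot be assigned to 1 of them.

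Among the GluN2 genes, Grin2a carried 1 region. It lies in an intron on chromosome 16 (9920841 to 9921094; RefSeq span of the gene 9567901 to 9996083), 75.1 kb from one end of the gene and 353 kb from the other. The region was CHH with 132 cytosines in 254 bp, and stood at 9.34% in depressed-group and 1.23% in normal-group embryos. This difference of 8.11 points was the largest of the 5 higher CHH regions of the family, and 86.1% of all 5528 higher CHH regions had a smaller one. No lower region and no exonic region was listed for Grin2a.

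Grin2b, on chromosome 6 (RefSeq span 135713221 to 136173615, read from high to low coordinates as the place of its 3′ UTR shows), held 14 regions at 10 separate places. These were a tight cluster of lower regions in the 3′ UTR and scattered intronic regions of both directions.

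The 3′ UTR cluster comprised 7 regions at 3 places within 16.7 kb, which is 3.62% of the gene's length, and all 7 were lower in the depressed group. Nearest to the gene's 3′ end, 2.63 kb from it, was a CHH region (135715749 to 135715943, 25 cytosines) at 0.427% in depressed-group and 61.8% in normal-group embryos. Its difference of 61.4 points was the largest of the family, and 94.2% of the 1415 lower CHH regions had a smaller one. The CHG region within it (135715809 to 135715935, 12 cytosines) stood at 0.0610% against 58.0%. Both overlap an old LINE element of the L2 family in the 3′ UTR.

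The next place held the longest region, a CHH region of 2899 bp (135720818 to 135723716) at 0.957% in depressed-group and 37.9% in normal-group embryos. Only 81 cytosines back it, or 2.79 per 100 bp, and 97.7% of lower CHH regions were shorter. Inside it lay 2 CHG regions. One (135723088 to 135723278, 12 cytosines) was at 4.06% against 41.8%, the highest depressed mean of the 12 lower regions. The other (135723523 to 135723704, 9 cytosines) was at 0.667% against 32.9%.

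At the third place, 18.8 kb from the 3′ end, a CHH region of 86 cytosines (135731717 to 135732424) stood at 1.04% in depressed-group and 18.4% in normal-group embryos. The CHG region inside it (135731722 to 135731949, 15 cytosines) stood at 0.0909% against 27.7%. Both lie on the shore of a CpG island and in the promoter of another Ensembl gene that the table gives without a name. Across the 3 places the normal mean of the CHH regions was 61.8, 37.9 and 18.4% from the gene's 3′ end inward, while the depressed means were all at or below 1.04%. For the CHG regions the normal means in the same order were 58.0, then 41.8 and 32.9, then 27.7%. These CHG regions lie within the CHH regions, so their order is not a separate observation.

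Introns of Grin2b held 3 lower regions, spread over 143.9 kb of the 5′ part of the gene. In reading direction the first was a CHG region 19.96 kb from the gene start (136153602 to 136153709, 11 cytosines) at 0.217% in depressed-group and 19.2% in normal-group embryos. A CHH region in a LINE-1 element of the Lx7 family followed at 145.4 kb (136028132 to 136028316, 42 cytosines), with 0.503% against 28.4%. A CHG region at 163.8 kb (136009799 to 136009882) had 0.0956% against 51.5%, but rests on 6 cytosines. These 3 regions overlapped no region of the other context.

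The 4 higher regions of Grin2b were all CHH and all intronic, with small differences. In reading direction they lay 36.5, 94.6, 144.6 and 305.4 kb from the gene start. The first (136137029 to 136137213, 107 cytosines) stood at 5.82% in depressed-group and 1.10% in normal-group embryos, and the second (136078962 to 136079134, 98 cytosines), in a B4 family SINE, at 6.77% against 1.53%. The third (136028899 to 136029064, 96 cytosines) stood at 4.06% against 0.261%. The fourth (135868050 to 135868346, 147 cytosines) stood at 3.06% against 0.464%. Its difference of 2.60 points was the smallest of the family, and 18.5% of all 5528 higher CHH regions had a smaller one. The smallest that the table lists for CHH regions was 2.00 points. Opposite directions occurred close together: 582 bp separate the third of these regions from the lower CHH region in the Lx7 element.

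**Figure D2:**
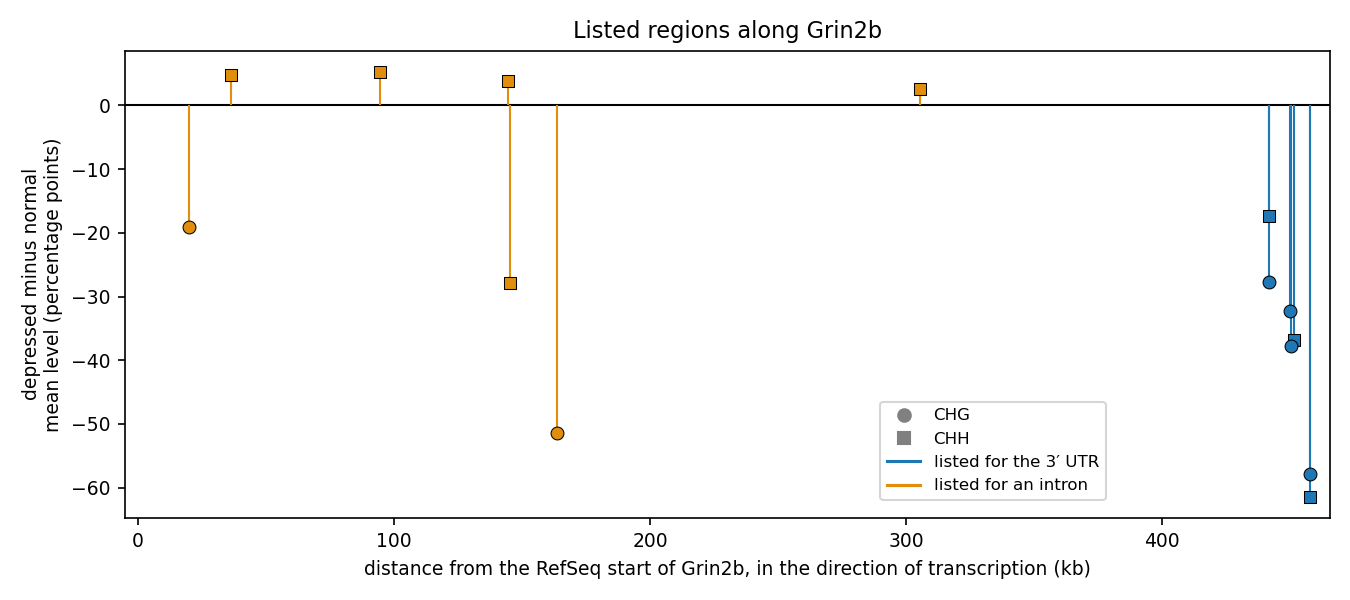
Difference between the group means (depressed minus normal, percentage points, vertical axis) of the 14 regions of Grin2b against distance from the gene's RefSeq start in kb, with circles for CHG, squares for CHH, blue for the 3′ UTR and orange for introns. The 7 regions of the 3′ UTR lie together at the far right, all below 0, while introns hold 4 regions just above 0 and 3 below it.

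Lower CHG and CHH regions of the family mostly coincided. Of its 7 lower CHG regions 5 shared bases with a lower CHH region, and each of those 5 lay wholly within it. Of its 5 lower CHH regions 4 held a CHG region. Among all listed regions, 48.9% of lower CHG and 54.3% of lower CHH regions overlapped a region of the other context. Regions that overlap are read from the same DNA molecules and are not independent. Counted by place, the 12 lower regions came to 7 and the 6 higher regions remained 6, of which 0 overlapped another context. Such overlap was rare over all listed regions too, at 4.14% of higher CHG and 0.127% of higher CHH regions.

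The annotation of the NMDA receptor regions is given beside that of all regions listed with a named gene. In exons or UTRs lay 5 of 7 lower CHG regions of the family (84.6% over all lower CHG regions with a named gene) and 4 of 5 lower CHH regions (71.9%), and all 9 were in a 3′ UTR. Of all lower regions with a named gene, 51.5% in the CHG and 49.6% in the CHH context were in a 3′ UTR. The 9 regions of the family are not separate cases, since they lay at 3 places in Grin2b and in the overlapping pair of Grin1. The 1 higher CHG region, in Grin1, was exonic too (91.03% over all higher CHG regions with a named gene). None of the 5 higher CHH regions of the family touched an exon (3.77% over all higher CHH regions with a named gene), and all 5 were intronic (95.2%).

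Among CHH regions, the number of cytosines per length differed with direction. The 5 higher CHH regions had 49.5 to 57.8 listed cytosines per 100 bp (median 56.6), against 2.79 to 22.7 (median 12.1) in the 5 lower ones. Over all regions the medians were 50.0 for higher and 21.2 for lower CHH regions. For CHG regions the values lay close together: the higher one, in Grin1, had 10.8 per 100 bp and the 7 lower ones 4.95 to 10.2, with medians of 10.5 and 8.33 over all higher and lower CHG regions. The region statistic, which adds up along a region, was accordingly large for small differences: the Grin2a region, with 8.11 points, had 1080, and the Grin2b region with 61.4 points had -332. Statistics of regions with different numbers of cytosines therefore do not rank the size of a difference. Which cytosines were covered in which embryo is unknown, and the part of coverage in these densities was not tested.

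**Figure D3:**
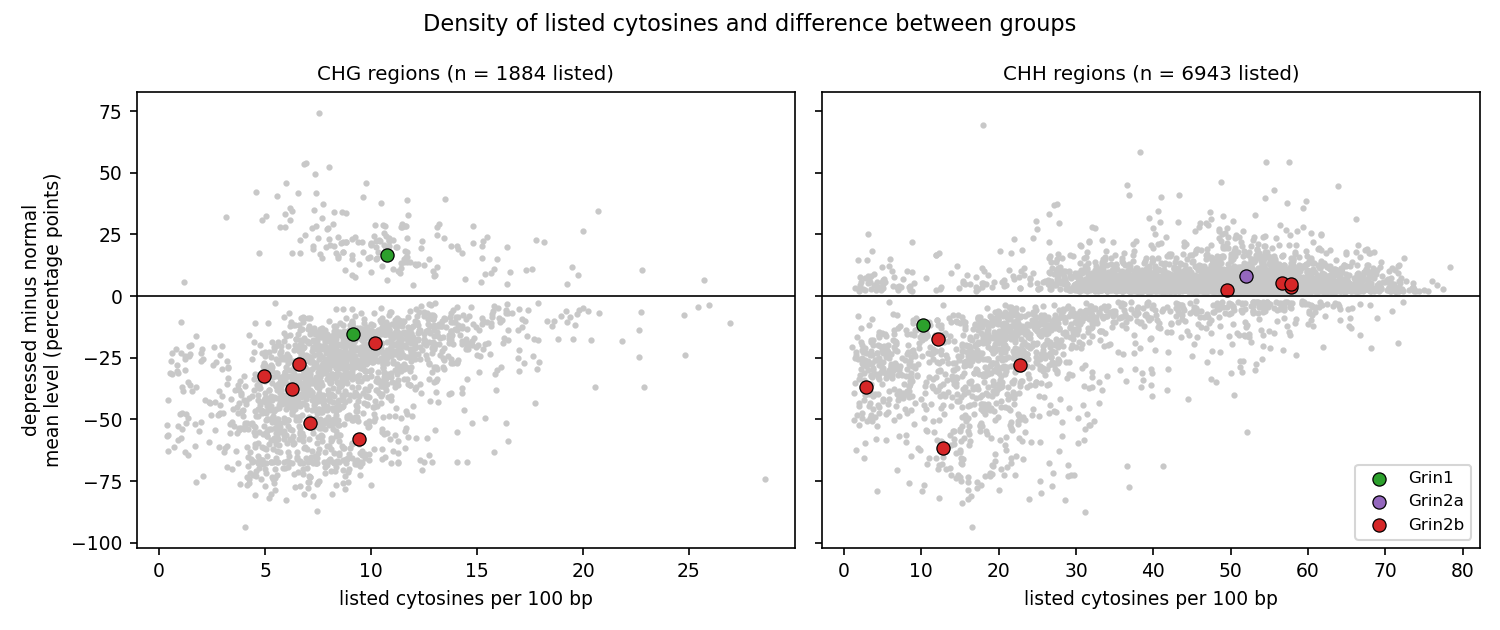
Difference between the group means (percentage points, vertical axis) against the number of listed cytosines per 100 bp for all CHG (left) and CHH (right) regions in grey, with those of Grin1, Grin2a and Grin2b in colour. The 5 higher CHH regions of the family sit between 49.5 and 57.8 cytosines per 100 bp and the 5 lower ones between 2.79 and 22.7.

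Grin2b is among the genes with the most listed regions. With 14 it was exceeded by 3 protein-coding genes, Celf2 (15), Ank3 (17) and Fgfr2 (20), named after their values were seen, and of the Fgfr2 regions 0 lay within 10 kb of that gene's RefSeq span. The median over the 3938 genes with a region was 1. Its 6 lower CHG regions were exceeded by Fgfr2 (7) and equalled by Bsn and Celf2. Its 4 lower CHH regions were exceeded by none and equalled by Bsn, Celf2, Fgfr2, Mapk8ip3 and Slc1a2.

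The genes named beside Grin2b differ in length: Celf2 spans 857 kb, Ank3 494 kb, Slc1a2 133 kb, Fgfr2 104 kb, Bsn 94.4 kb and Mapk8ip3 39.5 kb. Grin2b spans 460 kb and Grin2a 428 kb, while Grin1, Grin2c and Grin2d span 28.0, 18.1 and 39.3 kb, Grin3a 184 kb and Grin3b 6.79 kb. Of 303 protein-coding genes at least as long as Grin2a, 253 (83.5%) had a higher CHH region, against 8.06% of the shorter ones. This length limit was taken from Grin2a itself, after the values were seen. The share counts genes with any higher CHH region, while Grin2b had 4. Of the 1994 genes with a higher CHH region, 88 had at least 4, Grin2b included. The part of length in the regions of Grin2a and Grin2b was not tested. Lower CHG regions were listed for 20.8% and lower CHH regions for 27.1% of these long genes, against 6.195 and 5.07% of the shorter ones. Long genes had a median of 2 regions (quartiles 1 and 5); 2 of the 303 had more than Grin2b, and 87 had 1 or 0, as Grin2a did. Per 100 kb of gene there were 10.7 regions in Grin1, 3.04 in Grin2b and 0.234 in Grin2a.

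Sequence around a transcript start was at hand in the RefSeq promoter table (GRCm38.p6) for 4 of the 7 genes. The windows of Grin2d and Grin3b lie inside the RefSeq span of the gene, and those of Grin1 and Grin2c reach over its start. These windows of 300 bases hold 33 CpG in Grin1, 22 in Grin2c, 12 in Grin2d and 3 in Grin3b, against a median of 7 over 32851 windows. Of the 4 windows 0 overlapped a listed region of any context. The nearest listed region was 21.5 kb away for the Grin1 window and between 46.2 and 71.9 kb for the other 3. Regions that did not differ are not in the table, so whether these windows were covered and alike in both groups is unknown.

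Genes that act with NMDA receptors were described from 5 lists drawn up by function, beside the shares of all protein-coding genes given above (6.4% for lower CHG, 5.37% for lower CHH and 9.11% for higher CHH regions). Their genes were longer than most: the median length was 378 kb for the other ionotropic receptors, 71.3 kb for scaffolds, 92.0 kb for calcium signalling, 51.6 kb for kinases and phosphatases and 24.8 kb for co-agonist supply, against 17.1 kb over all protein-coding genes. The part of length in the counts of these lists was not tested. Among the 11 ionotropic glutamate receptor genes of other families, the AMPA, kainate and delta receptors, 7 carried a higher CHH region, 2 a lower CHH, 1 a lower CHG and 1 a lower CG region. Gria2, for the AMPA subunit that limits calcium entry, had regions of both directions like Grin2b: 0.422% in depressed-group and 49.8% in normal-group embryos at a lower CHH region annotated to its promoter, 5′ UTR and an exon, and 7.43% against 1.71% at a higher one in an intron. Scaffold and anchoring genes had lower CHG regions in 6 of 23, lower CHH in 9 and higher CHH in 11. The largest statistic among lower regions was that of Shank1, for a scaffold of the postsynaptic density, in the 3′ UTR (0.899% against 73.3%). Among higher regions it was that of Shank2, in an intron (4.64% against 0.627%). A lower CHH region of Ephb2, annotated to an intron and a promoter, stayed high in both groups (79.6% against 92.3%). Among 17 genes of calcium signalling below the receptor, 6 had a lower CHG, 5 a lower CHH and 2 a higher CHH region. Camk2a, for a kinase that binds GluN2B, was at 0.369% against 43.1% in its 3′ UTR. Nos1, with a higher region in an intron, was at 7.34% against 0.920%. Camk2g, the other gene of this list with a higher CHH region, was at 22.05% against 0.235% in an exon and intron.

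Of 12 kinase and phosphatase genes that act on the receptor, 2 had a lower CHG, 2 a lower CHH, 4 a higher CHH, 1 a higher CHG and 1 a lower CG region. The kinase C gene Prkcb stood at 0.184% against 49.2% in one intronic region and at 3.34% against 0.536% in another. The lower CG region was that of Fyn, for a tyrosine kinase that phosphorylates GluN2 subunits (22.4% against 86.7%, intron). Of 8 genes for the supply of glycine and D-serine, only Shmt2 had a region, a lower CG one at its promoter (2.33% against 74.3%). A lower CG region was listed for 3 of these 71 partner genes and for 0 of the 7 subunit genes, both near the 2.54% of all protein-coding genes at these list sizes.

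**Figure D4:**
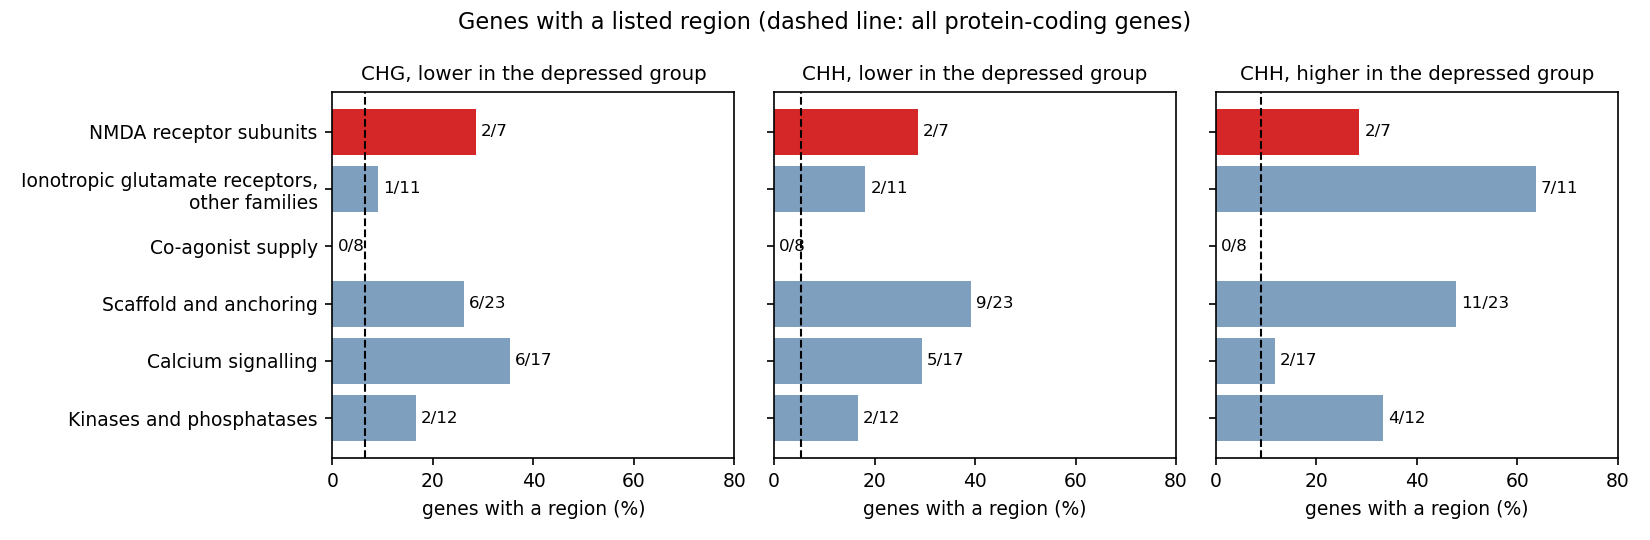
Percent of the genes of each list (horizontal axis) with a lower CHG (left), lower CHH (middle) or higher CHH region (right), with the NMDA receptor subunits in red, the partner lists in blue, counts beside the bars and all protein-coding genes as a dashed line at 6.4, 5.37 and 9.11%. NMDA receptor subunits have 2 of 7 in each panel, and the other ionotropic receptors have 7 of 11 for higher CHH regions.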

How the data were processed

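Libraries of 6 single embryos were processed with Trim Galore 0.3.3, Bismark and SAMtools on mm10, per the submitters' processing notes. For the region caller, its thresholds and how embryos were combined, nothing is given in the sources used here. Group means are deposited as a fraction of methylated cytosines, written here in percent. The difference and the region statistic are scores of the authors, per the file headers; subtracting the normal from the depressed mean gave that difference to within 1e-09 for 9707 of 9707 regions. Coverage and values per embryo were not analysed here, so levels carry no interval.

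With Python 3.11.15 and pandas 2.3.3, 18732 annotation entries were collapsed by position and context to 9707 regions. A run of this step on simulated data counted regions by the same rule on both sides, so nothing rests on it. Overlap meant at least 1 shared base. Of 4040 gene names, 3940 matched a RefSeq protein-coding gene (GRCm38.p6). No test was run. Every member region is described; partner genes named are among the 3 with the largest absolute statistic per list and direction. The members and the lists were chosen with earlier results of these data known.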

Additional observations from a re-analysis of the deposited data

How the results depend on the processing

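Of 40 values recomputed under 5 alternatives, 36 were within 1.5 times the main value and 4 were not. All alternatives filter or merge the same listed regions, and part of the 36 could not move. Every region overlaps its RefSeq gene, every lower region differs by more than 10 points, and no higher regions overlap each other. With differences of at least 10 points, the higher regions went from 6 to 1, the exonic CHG region of Grin1, so that their median depressed level became 18.0%, and Grin2a no longer had a region. With only the upper 50% of absolute statistics in each context, the lower regions went from 12 to 6. With overlapping regions of a direction merged they went from 12 to 7. A minimum of 10 cytosines left 16 regions, and asking for overlap with the RefSeq gene left all 18. Leaving out embryos was not run, since the table holds group means alone. No paired analysis was possible because the shared replicate numbers 1 and 4 have no values per embryo in the table. Depth is unknown, so it sets an unknown limit on each level, most of all where a region rests on few cytosines, such as the 6 of an intronic CHG region in Grin2b.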

Other observations

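The 4 subunit genes with no listed region each had a lower CHG region as their nearest neighbour in the table, in a different gene. For Grin3a, whose GluN3A subunit lowers the calcium permeability of the receptor, it lay 5.52 kb outside the gene in Rnf20, a histone H2B ubiquitin ligase gene (0.0928% in depressed-group and 34.7% in normal-group embryos). For Grin2c it lay 33.7 kb away in Tmem104 (0.349% against 16.5%), for Grin2d 37.1 kb away in Lmtk3 (1.66% against 16.1%), and for Grin3b 59.3 kb away in R3hdm4 (1.77% against 30.4%). These neighbours were chosen by distance alone. Lower CHG regions are 1715 of the 9707 listed regions. How often other genes without a region have such a neighbour was not computed, so nothing is read from it about these 4 genes.

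Grin2b shared its mix of directions with other genes. Lower CHH regions were listed for 1177 protein-coding genes and higher CHH regions for 1994, and 211 genes had both. Lower CHG regions in addition were listed for 115 of these, Grin2b among them.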
